A study of Homo sapiens with 8 samples.

Results

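Melanosome transport and biogenesis genes were followed in COLO829 cells on 8 microarrays that cover 18404 genes. The 10 genes were taken from a list by name and were not chosen by a threshold on their values: RAB27A, MLPH, MYO5A, MREG, LYST, RAB38, RAB32, SYTL2, SYTL5 and STX7. The choice of these genes was made with earlier results of these data known. All 10 were measured, each by the only probe set that carried its symbol alone. The 4 groups had 2 arrays each, A and B: cells with a hairpin against MITF given PLX4032, cells with that hairpin given DMSO, cells with a scrambled hairpin given PLX4032, and cells with the scrambled hairpin given DMSO. COLO829 is an established line from a human melanoma and carries an activating BRAF mutation. MITF is the lineage transcription factor of melanocytes, and PLX4032 (vemurafenib) inhibits mutant BRAF. All cells carried a pGIPZ hairpin vector, were populations and not clones, were selected with puromycin for 2 days, and were then kept for 24 h in 1 µM PLX4032 or in DMSO, its control. Only 1 hairpin against MITF is named, so its changes could not be set against those of another.

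Melanosomes are the organelles in which pigment cells make melanin. They mature from endosomes, and melanosomal enzymes reach them through endosomal sorting. The small GTPases RAB32 and RAB38 act in that delivery step, while LYST and the SNARE syntaxin 7 belong to the wider machinery of endosomes and lysosome-related organelles. Mature melanosomes carry RAB27A, which binds melanophilin (MLPH), which in turn binds the actin motor myosin Va (MYO5A). Loss of any of these 3 proteins causes forms of Griscelli syndrome, with pigment clumped in melanocytes, and loss of LYST causes Chediak-Higashi syndrome, with enlarged organelles. Melanoregulin (MREG) has been linked in mouse to movement of melanosomes towards the cell centre, and the synaptotagmin-like proteins SYTL2 and SYTL5 bind RAB27 proteins.

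Levels are log2 intensities, so a difference of 1 is a doubling, and levels of different genes are not comparable because each probe set has its own brightness. Changes are differences of group means with their SE from a limma fit to the whole set of 8 arrays (n = 2 in each group), and p-values are adjusted by Benjamini-Hochberg over 18404 genes with a threshold of 0.05. Replicates were close: the 40 gaps between arrays A and B (10 genes in 4 groups) had a median of 0.073, and 37 of them were under 0.2. The gap was over 0.3 for RAB27A in knockdown PLX4032 cells (0.56) and for MLPH in scrambled DMSO cells (0.44). MITF was lower in knockdown cells under both treatments, at 10.08 ± 0.0060 in knockdown PLX4032 cells against 10.84 ± 0.055 in scrambled PLX4032 cells, and at 9.52 ± 0.069 in knockdown DMSO cells against 10.45 ± 0.014 in scrambled DMSO cells (SD, n = 2). SPRY4, an output of MAPK signalling that checks the inhibitor, fell under PLX4032 by 5.30 ± 0.10 in knockdown cells and by 4.50 ± 0.10 in scrambled cells (limma adjusted p at most 7.63e-10). Of 7 melanocyte lineage markers, 6 were measured, among them SOX10 at 10.36 to 11.06 over the 8 arrays and PMEL at 11.70 to 12.86. MLANA, also a melanocyte marker, read 5.76 and 5.79 in knockdown PLX4032 cells, 4.32 and 4.47 in knockdown DMSO cells, 8.57 and 8.38 in scrambled PLX4032 cells, and 6.17 and 6.30 in scrambled DMSO cells. Of 6 fibroblast markers, LUM was the brightest, at 9.30 to 9.84. Means over the 8 arrays of the others ran from 3.57 to 6.53, where the median over all genes was 6.78. With no detection calls, which markers were absent could not be judged.

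The melanosome genes moved in opposite directions under the 2 perturbations, and the combination parted them into genes that ended below and genes that ended above untreated cells. MITF knockdown in DMSO changed all 10 genes, with 9 lower and SYTL5 higher, where 33.2% of all genes tested changed (14.4% rose and 18.8% fell). PLX4032 in scrambled cells also changed all 10, with 9 higher and SYTL5 lower, where 34.1% of all genes changed (17.3% rose and 16.8% fell). As the 10 genes were chosen with earlier results known, these counts describe them and do not test the set. The median change of the 10 genes on knockdown in DMSO was -0.96, beside 0.020 over all genes. Under PLX4032 in scrambled cells it was 0.98, beside 0.051 over all genes. In these whole-culture RNA samples, fewer cells that express a gene and less of its RNA per cell cannot be told apart.

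**Figure D1:**
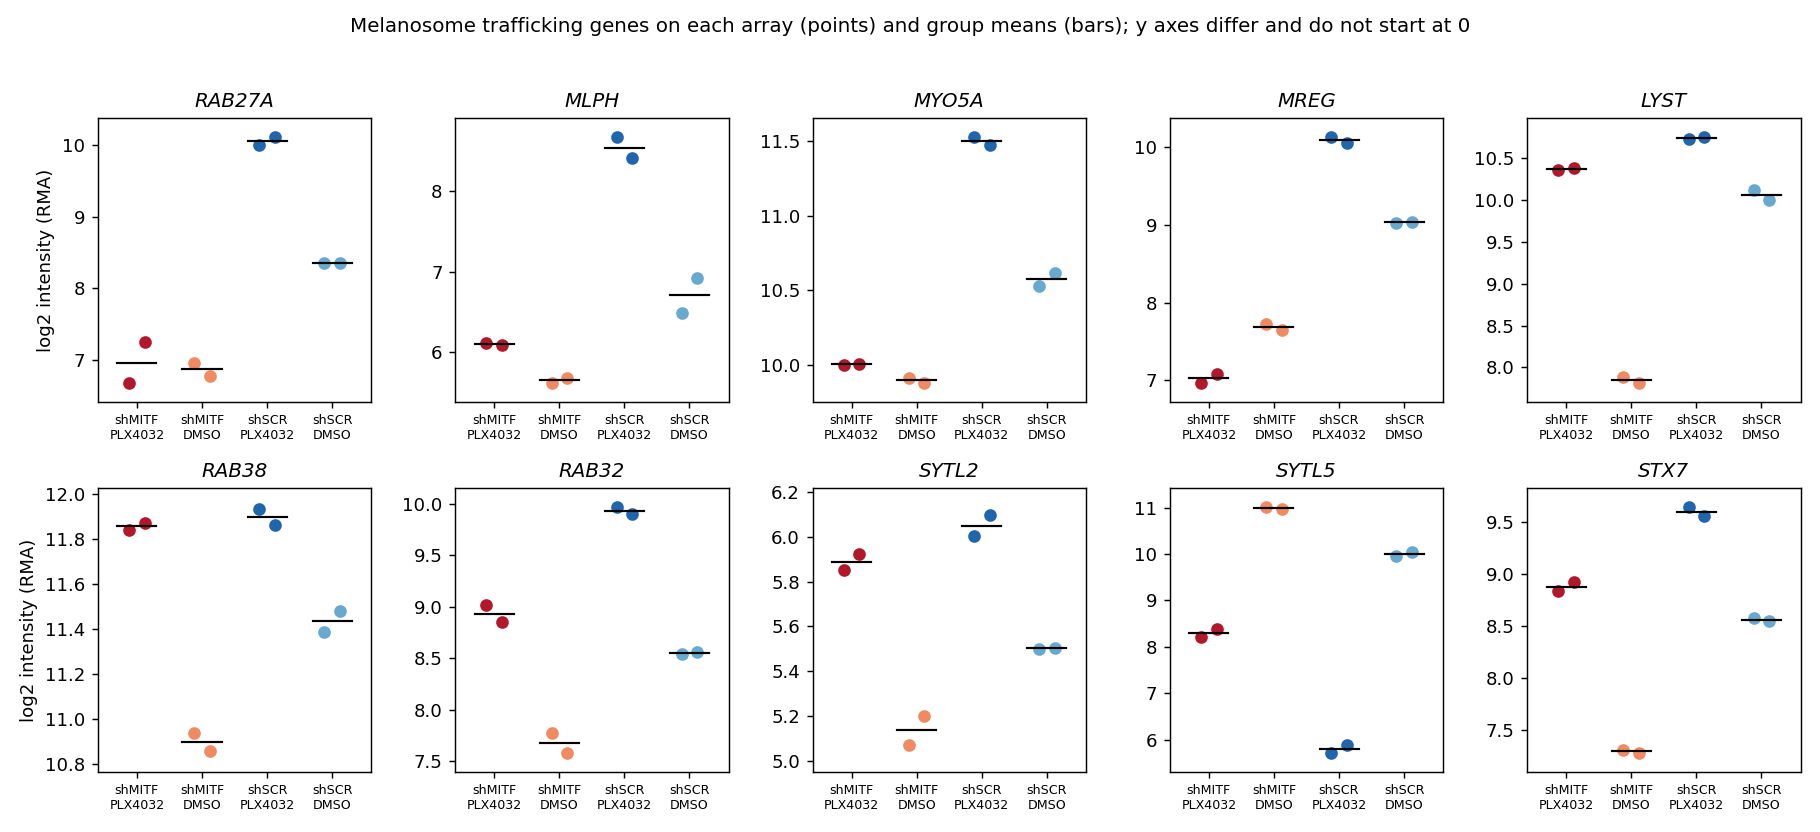
Levels of the 10 genes on each array (log2 intensity, y axis, scaled separately per gene) in the 4 groups, with a bar at each group mean (n = 2 arrays). RAB27A, MLPH, MYO5A and MREG are low in both knockdown groups, LYST is low in knockdown DMSO cells only, and SYTL5 is higher in knockdown cells under both treatments and lower under PLX4032 with either hairpin.

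On the GRCh38.p14 assembly several of the genes share chromosomes. MYO5A (chr15:52307283-52529050) and RAB27A (chr15:55202966-55319123) lie on chromosome 15, SYTL2 (chr11:85694229-85854870) and RAB38 (chr11:87803715-88175443) on chromosome 11, MREG (chr2:215939308-216034096) and MLPH (chr2:237486410-237555322) on chromosome 2, and STX7 (chr6:132445867-132513472) and RAB32 (chr6:146543833-146554953) on chromosome 6. LYST (chr1:235661031-235883713) and SYTL5 (chrX:37888915-38128820) have no other member on their chromosomes.

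RefSeq promoter sequences on GRCh38.p14 were at hand for 8 of the 10 genes, as 20 windows of the 250 bases before an annotated start. RAB38 and SYTL2 had no window, and several windows belong to the same gene. They were searched on both strands for 2 M-box forms that MITF is known to bind, TCATGTG and TCACGTG, for the E-box CACGTG, which the second M-box form contains, and for TGACTCA, the binding motif of the AP-1 transcription factor, a target of MAPK signalling. None of the 20 windows held either M-box form, where 2.52% of all 35116 windows held TCATGTG and 3.31% held TCACGTG. With either form in 5.75% of all windows, 20 windows are too few to judge its absence, and other sequence was not searched. The E-box was found in 1 window, of MLPH, where 6.34% of all windows held it, and TGACTCA was found at 1 place before LYST, in 2 overlapping windows, where 4.2% of all windows held it. These 2 windows are shown because they hold the matches, in genes that stood on opposite sides of the untreated level when both perturbations were combined. The matched letters are in capitals. The MLPH window, chr2:237487001-237487250 on the plus strand, lies before a start 841 bases inside the gene's span, and its E-box begins 35 bases upstream of that start. The LYST window, chr1:235883714-235883963 on the minus strand, lies before the outermost start, and its match begins 125 bases upstream.
MLPH: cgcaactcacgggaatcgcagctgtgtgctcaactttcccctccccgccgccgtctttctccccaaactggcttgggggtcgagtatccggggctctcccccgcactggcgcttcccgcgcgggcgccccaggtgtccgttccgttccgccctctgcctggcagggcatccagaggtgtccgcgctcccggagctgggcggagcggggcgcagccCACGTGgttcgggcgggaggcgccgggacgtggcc
LYST: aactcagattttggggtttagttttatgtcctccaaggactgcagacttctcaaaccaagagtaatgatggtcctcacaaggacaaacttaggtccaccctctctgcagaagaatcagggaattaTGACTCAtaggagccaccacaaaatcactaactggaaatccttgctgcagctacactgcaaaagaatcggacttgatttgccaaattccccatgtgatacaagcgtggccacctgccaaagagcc
A match is a run of letters and not a measured site, and binding was not measured.

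The 3 genes of the tripartite transport complex fell on knockdown under both treatments and rose under PLX4032 in scrambled cells. RAB27A, the GTPase on the melanosome surface, read 6.68 and 7.24 in knockdown PLX4032 cells, 6.96 and 6.78 in knockdown DMSO cells, 10.01 and 10.11 in scrambled PLX4032 cells, and 8.354 and 8.350 in scrambled DMSO cells. All 4 knockdown arrays lay below all 4 scrambled arrays, and the 2 knockdown groups overlapped. Knockdown lowered RAB27A to 11.7% of the scrambled level under PLX4032 (log2 change -3.10 ± 0.15, limma adjusted p = 8.07e-08) and to 35.7% in DMSO (-1.48 ± 0.15, adjusted p = 2.65e-05). In knockdown cells the PLX4032 change was 0.095, with a 95% interval from -0.24 to 0.43 (limma adjusted p = 0.696), and it rested on which knockdown PLX4032 array was used: 0.38 without array A (adjusted p = 0.0262) and -0.19 without array B (adjusted p = 0.263). In scrambled cells PLX4032 raised RAB27A 3.27-fold (1.71 ± 0.15, adjusted p = 7.19e-06).

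MLPH, the linker between RAB27A and the motor and the gene whose window held the E-box, read 6.12 and 6.09 in knockdown PLX4032 cells, 5.63 and 5.69 in knockdown DMSO cells, 8.66 and 8.40 in scrambled PLX4032 cells, and 6.49 and 6.92 in scrambled DMSO cells. The 4 groups did not overlap, and the scrambled DMSO arrays were the furthest apart. Its lowest levels could not be judged against background, so its folds are approximate. Knockdown lowered MLPH to 18.6% under PLX4032 (-2.43 ± 0.13, limma adjusted p = 2.22e-07) and to 48.3% in DMSO (-1.05 ± 0.13, adjusted p = 0.000147). PLX4032 raised it 1.36-fold in knockdown cells (0.45 ± 0.13, adjusted p = 0.0235), a call that ended when any 1 of the 4 knockdown arrays was left out (0.42 to 0.48, adjusted p at most 0.117). In scrambled cells PLX4032 raised MLPH 3.55-fold (1.83 ± 0.13, adjusted p = 2.05e-06), the largest PLX4032 rise among the 10 genes there.

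MYO5A, the actin motor, read 10.00 and 10.01 in knockdown PLX4032 cells, 9.91 and 9.88 in knockdown DMSO cells, 11.53 and 11.47 in scrambled PLX4032 cells, and 10.53 and 10.62 in scrambled DMSO cells. The 4 knockdown arrays stood within 0.13 of each other and below every scrambled array. Knockdown lowered MYO5A to 35.5% under PLX4032 (-1.49 ± 0.079, limma adjusted p = 1.54e-07) and to 62.5% in DMSO (-0.68 ± 0.079, adjusted p = 7.46e-05). In knockdown cells the PLX4032 change was 0.11, with a 95% interval from -0.066 to 0.28 (limma adjusted p = 0.354). In scrambled cells PLX4032 raised MYO5A 1.9-fold (0.92 ± 0.079, adjusted p = 5.85e-06).

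MREG, the gene of melanoregulin, was the only one of the 10 whose PLX4032 change passed the test in opposite directions in the 2 hairpin backgrounds. It read 6.97 and 7.08 in knockdown PLX4032 cells, 7.72 and 7.65 in knockdown DMSO cells, 10.13 and 10.06 in scrambled PLX4032 cells, and 9.02 and 9.05 in scrambled DMSO cells. No groups overlapped, and the lowest was the combination, which was lowest for no other gene of the 10. PLX4032 lowered MREG to 63.2% in knockdown cells (-0.66 ± 0.082, limma adjusted p = 7.79e-05) and raised it 2.08-fold in scrambled cells (1.06 ± 0.082, adjusted p = 3.02e-06). Knockdown lowered it to 11.9% under PLX4032 (-3.07 ± 0.082, adjusted p = 1.81e-09) and to 39.3% in DMSO (-1.35 ± 0.082, adjusted p = 7.45e-07).

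LYST, STX7, RAB32 and RAB38, the genes of endosomal sorting and organelle biogenesis, rose under PLX4032 both in knockdown cells and in scrambled cells. So did SYTL2 and, with a smaller rise in knockdown cells, MLPH. LYST, a BEACH domain protein that limits the size of lysosome-related organelles, and the gene whose window held TGACTCA, read 10.36 and 10.39 in knockdown PLX4032 cells, 7.88 and 7.82 in knockdown DMSO cells, 10.73 and 10.75 in scrambled PLX4032 cells, and 10.12 and 10.00 in scrambled DMSO cells. Knockdown DMSO cells stood far below the other 3 groups, which lay within 0.75 of each other. Knockdown lowered LYST to 77.5% under PLX4032 (-0.37 ± 0.081, limma adjusted p = 0.0053) and to 21.6% in DMSO (-2.21 ± 0.081, adjusted p = 3.04e-08), the largest fall on knockdown in DMSO among the 10 genes. PLX4032 raised it 5.75-fold in knockdown cells (2.52 ± 0.081, adjusted p = 4.03e-09) and 1.6-fold in scrambled cells (0.68 ± 0.081, adjusted p = 6.8e-05).

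STX7 encodes syntaxin 7, a SNARE of endosome fusion. It read 8.84 and 8.92 in knockdown PLX4032 cells, 7.32 and 7.29 in knockdown DMSO cells, 9.64 and 9.56 in scrambled PLX4032 cells, and 8.58 and 8.55 in scrambled DMSO cells. No groups overlapped, and their order was that of LYST. PLX4032 raised STX7 2.99-fold in knockdown cells (1.58 ± 0.080, limma adjusted p = 9.09e-08) and 2.05-fold in scrambled cells (1.04 ± 0.080, adjusted p = 2.96e-06). Knockdown lowered it to 60.7% under PLX4032 (-0.72 ± 0.080, adjusted p = 4.86e-05) and to 41.6% in DMSO (-1.26 ± 0.080, adjusted p = 9.54e-07).

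RAB32 and RAB38 are paralogous GTPases that share the work of delivering tyrosinase and TYRP1 to melanosomes. RAB32 read 9.02 and 8.85 in knockdown PLX4032 cells, 7.77 and 7.58 in knockdown DMSO cells, 9.97 and 9.90 in scrambled PLX4032 cells, and 8.54 and 8.56 in scrambled DMSO cells. No groups overlapped, and the PLX4032 arrays lay above the DMSO arrays with either hairpin. PLX4032 raised RAB32 2.39-fold in knockdown cells (1.26 ± 0.094, limma adjusted p = 1.64e-06) and 2.61-fold in scrambled cells (1.38 ± 0.094, adjusted p = 1.21e-06). Knockdown lowered it to 49.97% under PLX4032 (-1.001 ± 0.094, adjusted p = 1.29e-05) and to 54.6% in DMSO (-0.87 ± 0.094, adjusted p = 4.21e-05).

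RAB38 read 11.84 and 11.87 in knockdown PLX4032 cells, 10.94 and 10.86 in knockdown DMSO cells, 11.93 and 11.86 in scrambled PLX4032 cells, and 11.38 and 11.48 in scrambled DMSO cells. The 2 PLX4032 groups overlapped, and knockdown DMSO cells were the lowest. PLX4032 raised RAB38 1.94-fold in knockdown cells (0.96 ± 0.082, limma adjusted p = 4.6e-06) and 1.38-fold in scrambled cells (0.46 ± 0.082, adjusted p = 0.00111). Under PLX4032 the knockdown change was -0.042, with a 95% interval from -0.22 to 0.14 (limma adjusted p = 0.751). In DMSO knockdown lowered RAB38 to 68.9% (-0.54 ± 0.082, adjusted p = 0.000523).

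The 2 synaptotagmin-like genes moved in opposite directions. SYTL2, which in mouse melanocytes holds RAB27A-bearing melanosomes at the cell edge, read 5.85 and 5.92 in knockdown PLX4032 cells, 5.07 and 5.20 in knockdown DMSO cells, 6.002 and 6.09 in scrambled PLX4032 cells, and 5.501 and 5.505 in scrambled DMSO cells. Its group means spanned 0.91, the narrowest span among the 10 genes, although no groups overlapped. Its levels could not be judged against background, so its folds are approximate. PLX4032 raised SYTL2 1.68-fold in knockdown cells (0.75 ± 0.084, limma adjusted p = 3.78e-05) and 1.46-fold in scrambled cells (0.55 ± 0.084, adjusted p = 0.000448). Under PLX4032 the knockdown change was -0.16, with a 95% interval from -0.35 to 0.025 (limma adjusted p = 0.189). In DMSO knockdown lowered SYTL2 to 77.7% (-0.36 ± 0.084, adjusted p = 0.00709), a call that ended without knockdown DMSO array A (-0.30, adjusted p = 0.073).

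SYTL5, which also binds RAB27 proteins, had the widest range of the 10 genes, 5.18 between group means. Whether its lowest levels lay above background could not be judged, so its folds are approximate. It read 8.21 and 8.38 in knockdown PLX4032 cells, 11.004 and 10.96 in knockdown DMSO cells, 5.72 and 5.89 in scrambled PLX4032 cells, and 9.97 and 10.04 in scrambled DMSO cells. No groups overlapped, and knockdown cells were the higher ones under both treatments. PLX4032 lowered SYTL5 to 15.5% in knockdown cells (-2.69 ± 0.094, limma adjusted p = 6.23e-09) and to 5.45% in scrambled cells (-4.20 ± 0.094, adjusted p = 7.63e-10). Knockdown raised it 5.61-fold under PLX4032 (2.49 ± 0.094, adjusted p = 1.44e-08) and 1.97-fold in DMSO (0.98 ± 0.094, adjusted p = 1.83e-05).

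**Figure D2:**
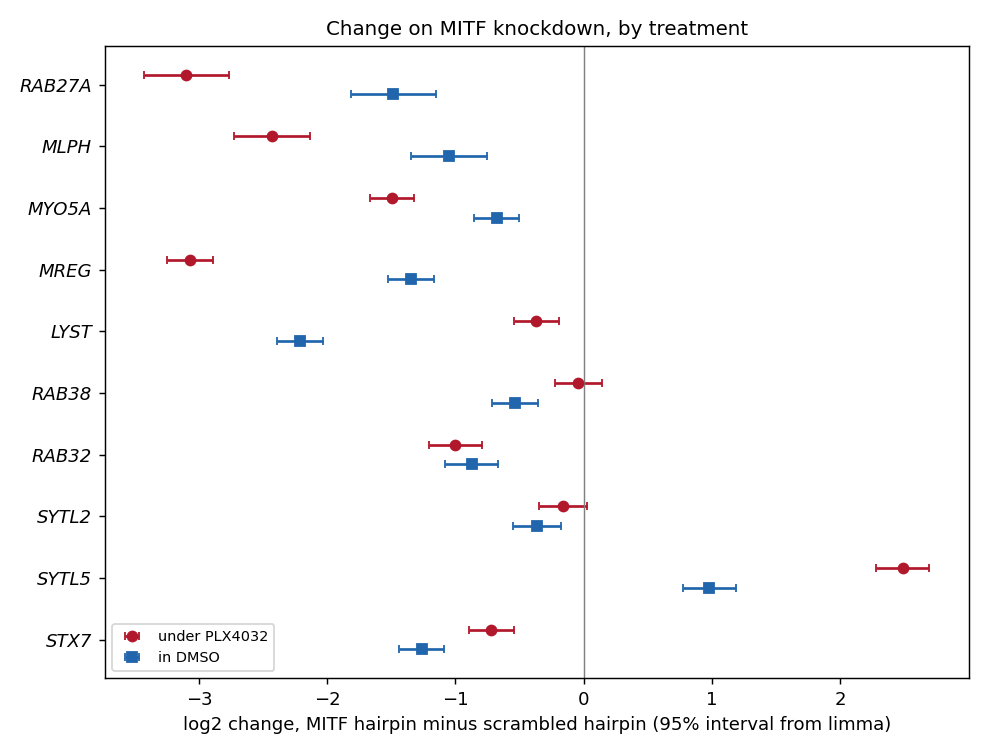
Change of each gene on MITF knockdown (log2, x axis, MITF hairpin minus scrambled hairpin), under PLX4032 (circles) and in DMSO (squares), with 95% intervals from limma (n = 2 arrays per group). RAB27A and MREG fall further under PLX4032 (-3.10 and -3.07) than in DMSO (-1.48 and -1.35), whereas LYST falls further in DMSO (-2.21) than under PLX4032 (-0.37).

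Under PLX4032, knockdown changed 8 of the 10 genes, with 7 lower and SYTL5 higher, where 28.5% of all genes tested changed (13.5% rose and 15% fell). RAB38 and SYTL2 did not pass the threshold there. PLX4032 in knockdown cells also changed 8 of 10, with 6 higher and MREG and SYTL5 lower, where 33.7% of all genes changed (18.6% rose and 15.1% fell). RAB27A and MYO5A did not pass the threshold in that comparison.

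Whether the inhibitor acted differently once MITF was reduced was tested for each gene by the interaction, the PLX4032 change in knockdown cells minus that in scrambled cells. It passed the threshold for 8 of the 10 genes, 4 in each direction, where 11.8% of all genes tested passed (6.97% positive and 4.85% negative). The difference was negative for the 3 genes of the transport complex and for MREG: -1.61 ± 0.21 for RAB27A, -1.38 ± 0.19 for MLPH, -0.82 ± 0.11 for MYO5A and -1.72 ± 0.12 for MREG (limma adjusted p at most 0.000765). It was positive for LYST (1.84 ± 0.11, adjusted p = 4.84e-06), STX7 (0.54 ± 0.11, adjusted p = 0.0098) and RAB38 (0.49 ± 0.12, adjusted p = 0.0186), whose PLX4032 rises were larger in knockdown cells. It was also positive for SYTL5 (1.51 ± 0.13, adjusted p = 3.74e-05), whose fall was smaller in knockdown cells. The interaction did not pass for RAB32, at -0.13 with a 95% interval from -0.42 to 0.17 (limma adjusted p = 0.63), nor for SYTL2, at 0.20 with an interval from -0.061 to 0.47 (adjusted p = 0.345). The call for RAB38 ended without array B of any 1 group (0.45 to 0.48, adjusted p from 0.0555 to 0.0927), and that for STX7 ended without knockdown DMSO array B (0.53, adjusted p = 0.0507). The MITF probe set itself gave an interaction of 0.17 ± 0.11 (limma adjusted p = 0.415).

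**Figure D3:**
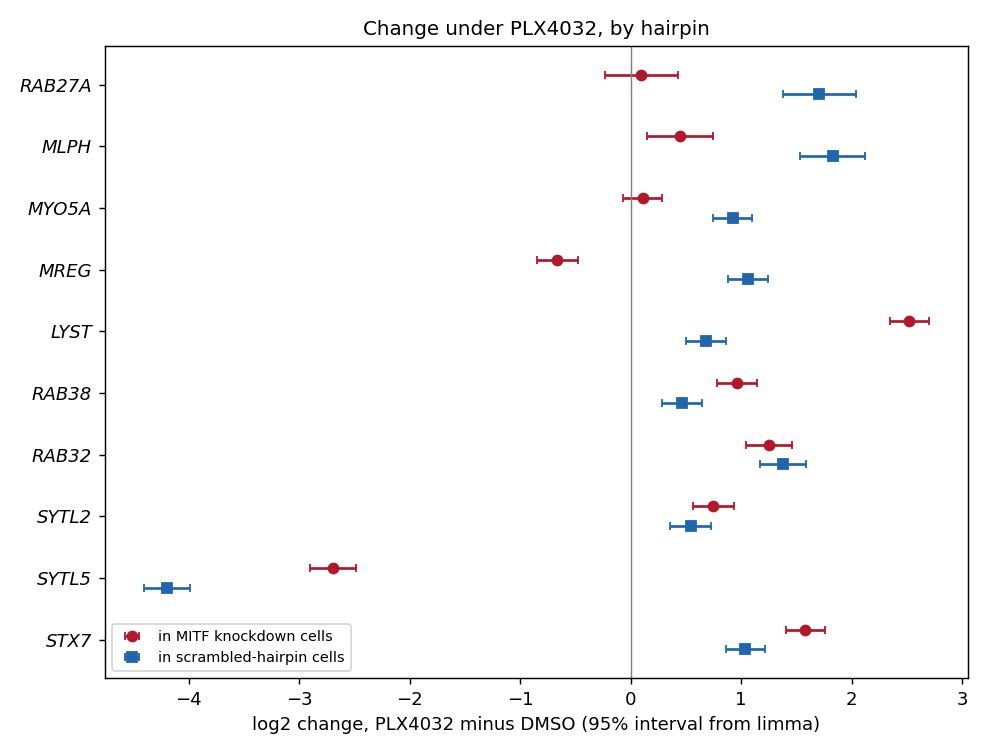
Change of each gene under PLX4032 (log2, x axis, PLX4032 minus DMSO), in MITF knockdown cells (circles) and in scrambled-hairpin cells (squares), with 95% intervals from limma (n = 2 arrays per group). RAB27A, MLPH, MYO5A and MREG lie further to the left in knockdown cells, LYST, RAB38 and STX7 lie further to the right, and RAB32 lies at 1.26 in knockdown cells and at 1.38 in scrambled cells.

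Cells with both perturbations were then set against untreated scrambled cells, which share their control arrays with the 2 single comparisons. All 10 genes changed, 5 in each direction, where 48.6% of all genes tested changed (27.1% rose and 21.5% fell). Of the 10 genes, 4 changed by at least 1.5-fold as well, as did 20.2% of all genes. RAB27A stood at 38.2% of the untreated level (-1.39 ± 0.15, limma adjusted p = 1.74e-05), MLPH at 65.9% (-0.60 ± 0.13), MYO5A at 67.4% (-0.57 ± 0.079), MREG at 24.9% (-2.01 ± 0.082) and SYTL5 at 30.5% (-1.71 ± 0.094). The 5 others stood slightly above the untreated level, at 1.24-fold for LYST (0.31 ± 0.081, adjusted p = 0.00812), 1.25-fold for STX7 (0.32 ± 0.080, adjusted p = 0.0071), 1.3-fold for RAB32 (0.38 ± 0.094, adjusted p = 0.00625), 1.31-fold for SYTL2 (0.38 ± 0.084) and 1.34-fold for RAB38 (0.42 ± 0.082). The call for LYST ended without scrambled DMSO array B (0.26, limma adjusted p = 0.0627), and that for RAB32 ended without knockdown PLX4032 array A (0.30, adjusted p = 0.0557). The MLPH value was -0.38 without scrambled DMSO array B (adjusted p = 0.0263), which is less than 1.5-fold, and -0.82 without array A (adjusted p = 0.000213). The SYTL2 value was 0.23 with quantile normalization repeated (adjusted p = 0.0469).

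The sum of the 2 single changes gives what the combination would read with no interaction. For LYST the combination measured 0.31 where the sum was -1.53, and for SYTL5 it measured -1.71 where the sum was -3.22. For RAB27A it measured -1.39 where the sum was 0.22, and for MREG -2.01 where the sum was -0.29. RAB32 measured 0.38 where the sum was 0.51. The gap between the measured value and the sum is the interaction tested above.

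**Figure D4:**
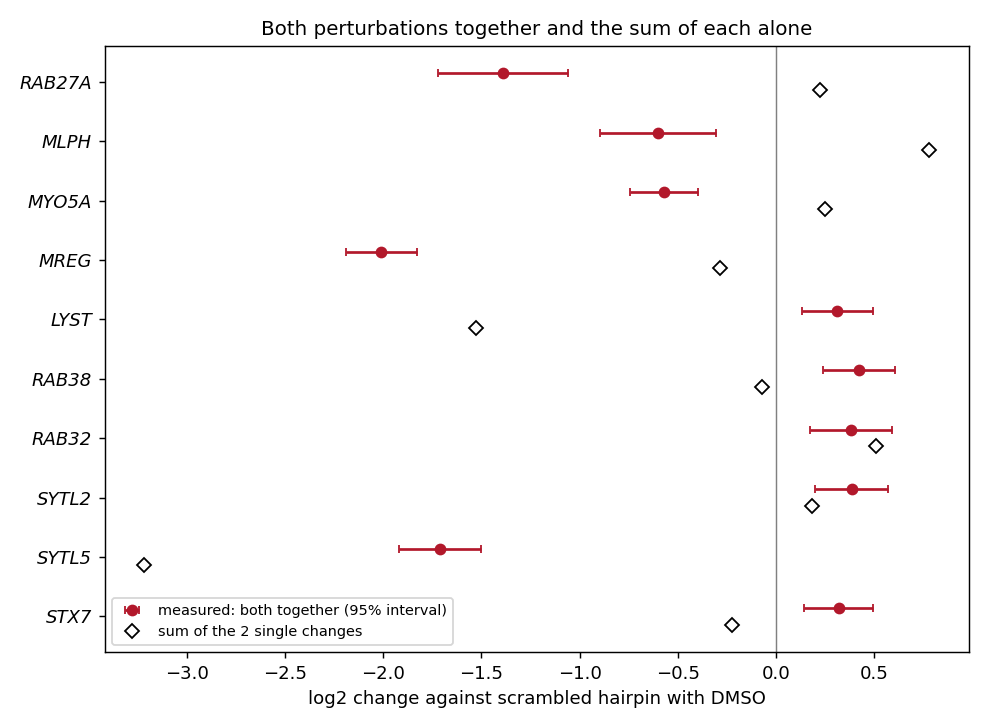
Change of each gene with both perturbations against scrambled DMSO cells (log2, x axis; circles with 95% intervals from limma, n = 2 arrays per group) and the sum of the changes with each alone (diamonds). The circle lies left of the diamond for RAB27A, MLPH, MYO5A and MREG, and right of it for LYST, RAB38, SYTL5 and STX7.

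The order of the levels summarises these differences. For 8 of the 10 genes (all but MREG and SYTL5) scrambled PLX4032 cells were highest and knockdown DMSO cells lowest by group mean. For RAB27A, MLPH and MYO5A the next level down was that of scrambled DMSO cells, followed by knockdown PLX4032 cells. The 2 knockdown groups did not differ past the threshold for RAB27A and MYO5A. For LYST, STX7, RAB32, RAB38 and SYTL2 the middle places were exchanged, with knockdown PLX4032 cells above scrambled DMSO cells. The 2 PLX4032 groups did not differ past the threshold for RAB38 and SYTL2. Over the 8 arrays, which are 4 groups of 2 and so not 8 independent points, Pearson's r was 0.990 between RAB27A and MYO5A and 0.989 between MLPH and MYO5A. It was 0.975 between RAB32 and STX7, 0.966 between LYST and STX7, and -0.974 between RAB32 and SYTL5.

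The genes most like each member were ranked by Pearson's r over the same 8 arrays among about 2590 genes whose group means spanned at least 1. EPHA5 was closest to RAB27A (r = 0.992), ARHGDIB to MLPH (0.995), NSG1 to MYO5A (0.998) and FAR2 to MREG (0.995). PRKX was closest to LYST (0.997), SPSB1 to STX7 (0.997), ARHGEF3 to RAB38 (0.998), ERVFRD-1 to RAB32 (0.996), PER3 to SYTL2 (0.996) and MAP2K3 to SYTL5 (0.998). NSG1 and AMBN were among the 3 closest genes of both RAB27A and MYO5A. The melanosomal enzyme gene TYRP1 was among the 3 closest of STX7 (0.997).

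The wider machinery was read from 12 further lists. Of 107 other genes in these lists of melanosome and endosome trafficking, 100 were measured. On knockdown in DMSO 6 of the 100 rose and 30 fell, where 14.4% of all genes rose and 18.8% fell, and the median change was -0.10, beside 0.020 over all genes. Under PLX4032 in scrambled cells 32 rose and 8 fell, where 17.3% of all genes rose and 16.8% fell, and the median was 0.15, beside 0.051 over all genes. The share called in either direction was thus near that of all genes in both comparisons (33.2% and 34.1%). The interaction passed for 9 of the 100, with 5 positive and 4 negative and a median of 0.016, beside 11.8% over all genes.

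Close relatives and partners of the 10 genes gave mixed results. RAB27B, the paralog of RAB27A, fell under PLX4032 in scrambled cells (-0.83 ± 0.12, limma adjusted p = 0.000267) and was the only fall among the 8 genes of its list, which holds the other exophilins, while 1 rose. RAB27B read 4.52 to 5.68 over the 8 arrays, and whether this lay above background could not be judged. Among 9 regulators and effectors of the RAB27 and RAB32/38 GTPases, CHML, which presents Rab proteins for lipid attachment, fell on knockdown in DMSO (-1.10 ± 0.092) and rose under PLX4032 in knockdown cells (0.80 ± 0.092). With the scrambled hairpin CHML was instead lower under PLX4032, with a mean of 8.05 against 8.62 in DMSO. TBC1D10A, a GTPase-activating protein for RAB27A, rose on knockdown in DMSO (0.67 ± 0.079). Under PLX4032 it did not, with a mean of 9.47 in knockdown cells and 9.61 in scrambled cells. ANKRD27, an effector of RAB32 and RAB38, fell on knockdown in DMSO (-0.62 ± 0.080). Of the 2 subunits of BLOC-3, the exchange factor of RAB32 and RAB38, HPS4 fell on knockdown in DMSO (-1.06 ± 0.078) and HPS1 rose (0.35 ± 0.079), and both rose under PLX4032 in scrambled cells. The HPS1 call on knockdown ended without knockdown DMSO array B (0.30, limma adjusted p = 0.066).

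Among 17 motors and actin nucleators, 1 rose and 7 fell on knockdown in DMSO, where 14.4% of all genes rose and 18.8% fell. The only rise and some of the smaller falls lost the call when 1 array was left out. The largest falls were those of the formin gene FMN1 (-1.81 ± 0.31, limma adjusted p = 0.00121), the unconventional myosin gene MYO10 (-1.02 ± 0.083) and SPIRE1, which nucleates actin (-0.88 ± 0.097). FMN1 read 7.16 and 5.91 on the 2 knockdown DMSO arrays, and without array B its fall was -1.18 (limma adjusted p = 0.00286). MYO6 and KIF13A, a myosin and a kinesin that act on endosomal membranes, gave the only 2 interactions called among the 17, both positive (1.15 ± 0.14 and 0.89 ± 0.11, limma adjusted p = 0.000382 for both), where 6.97% of all genes passed with a positive sign. MYO6 read 6.93 and 7.05 in knockdown PLX4032 cells, 6.01 and 5.83 in knockdown DMSO cells, 5.85 and 6.04 in scrambled PLX4032 cells, and 5.98 and 6.07 in scrambled DMSO cells. MYO6 was thus highest with both perturbations, and the other 3 groups overlapped.

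The list of HOPS, CORVET and related proteins, which tether endosomes before fusion, had 9 measured genes. Under PLX4032 in knockdown cells 7 of the 9 rose and 0 fell, where 18.6% of all genes rose. Likewise 7 rose and 0 fell in scrambled cells, where 17.3% of all genes rose. VPS41 (1.06 ± 0.093), VPS39 (0.69 ± 0.080) and VPS8 (0.68 ± 0.097) led in scrambled cells (limma adjusted p at most 0.000255). Of 15 other SNARE genes, 10 rose and 1 fell in knockdown cells, and 9 rose and 0 fell in scrambled cells, beside the same shares over all genes. Some rises in both lists, with either hairpin, lost the call when 1 array was left out. STX3, a SNARE of melanosome delivery, rose by 0.94 ± 0.082 in knockdown cells and by 0.78 ± 0.082 in scrambled cells. By limma the interaction passed for 0 of the 9 tether genes (1 at an unadjusted p under 0.05) and for 1 of the 15 SNARE genes, SNAP23 (-0.59 ± 0.14, limma adjusted p = 0.0212), beside 11.8% of all genes. The SNAP23 call ended without array A of any 1 group (-0.54 to -0.50, adjusted p from 0.0544 to 0.0912).

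Coat and sorting complexes were read under PLX4032 in scrambled cells, where 17.3% of all genes rose and 16.8% fell. There 3 of 6 BLOC-1 genes rose and 0 fell, 0 of 6 AP-3 genes passed by limma (0 at an unadjusted p under 0.05), and 1 of 7 genes of the AP-1 adaptor complex rose while AP1S3, a small subunit of it, fell (-0.95 ± 0.11). AP1S3 also fell on knockdown in DMSO (-1.32 ± 0.11, limma adjusted p = 7.36e-06). The BLOC-2 gene HPS5 rose on knockdown in DMSO (0.96 ± 0.11), rose with PLX4032 in scrambled cells (0.55 ± 0.11) and fell under PLX4032 in knockdown cells (-0.76 ± 0.11), with an interaction of -1.32 ± 0.15 (limma adjusted p = 0.000236). RAB17, a Rab GTPase linked in mouse to melanosome release, also gave a negative interaction (-1.13 ± 0.14, limma adjusted p = 0.000435). Of the 7 other BEACH family genes, 0 rose and 3 fell on knockdown in DMSO, where 18.8% of all genes fell, and NBEAL2 was among them (-0.81 ± 0.076). The interaction was positive for 2 of the 7, NBEAL2 (0.76 ± 0.11) and LRBA (0.57 ± 0.12), where 6.97% of all genes passed with that sign. The LRBA call ended without knockdown DMSO array B (0.51, limma adjusted p = 0.0633) and without scrambled PLX4032 array A (0.51, adjusted p = 0.0521).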

How the data were processed

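RNA from 8 COLO829 samples was hybridised to Affymetrix arrays. The authors deposited log2 intensities, 1 value per probe set. The submitters' processing notes name RMA without a version, and the genome build was not given. RMA sets all arrays to a like distribution, which would hide a shift of most genes, and it compresses changes of dim probe sets. Values ran from 2.1 to 13.53, and 0 columns belonged to other samples. No detection calls were available to judge signal over background, and the number of arrays limits the precision.

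Of 32321 probe sets, 19158 carried exactly 1 symbol in the platform annotation. The one with the highest mean over 8 arrays stood for its gene, which gave 18404 genes with no filter. Whether arrays A and B came from separate cultures is not labelled, so the spread behind each p-value may be technical. The fit was limma 3.58.1 (lmFit and eBayes, R 4.3.3) with a mean per group, 4 residual and 6.73 prior degrees of freedom, 6 contrasts and two-sided tests. It was also run on simulated data with independent noise, a check of the code that cannot speak to the spread between cultures. Alternatives were a filter on dim genes, other normalizations, probe set rules and variance models, a fit on the compared groups alone, the replicate letter as a block, each array left out, and a fold threshold.

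The members and lists were chosen with earlier results of these data known. The genes named are the 10 members, MITF and SPRY4 as checks, up to 3 genes with the largest called change per list and contrast described, and the closest genes by correlation. A few more were named for their role after their values were seen: ANKRD27, HPS1, TBC1D10A, RAB27B and the markers SOX10, PMEL, MLANA and LUM. TYR and OCA2 were named because their calls ended when an array was left out.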

Additional observations from a re-analysis of the deposited data

Results flagged for a closer look

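For 8 of the 10 genes the PLX4032 change differed between knockdown cells and scrambled cells by limma's test of that difference. The difference, knockdown minus scrambled on the log2 scale, was -1.61 for RAB27A (PLX4032 change 0.095 in knockdown cells and 1.71 in scrambled cells), -1.38 for MLPH (0.45 and 1.83), -0.82 for MYO5A (0.11 and 0.92) and -1.72 for MREG (-0.66 and 1.06). It was 1.84 for LYST (2.52 in knockdown cells and 0.68 in scrambled cells), 0.49 for RAB38 (0.96 and 0.46), 1.51 for SYTL5 (-2.69 and -4.20) and 0.54 for STX7 (1.58 and 1.04). With 2 arrays in a group no array could be tested as an outlier. The gap of 0.56 between the RAB27A values in knockdown PLX4032 cells was exceeded by 0.494% of all genes in that group, and the gap of 0.44 for MLPH in scrambled DMSO cells by 2.12%.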

How the results depend on the processing

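The 10 genes in 6 contrasts gave 60 changes, of which 54 passed the threshold. Of these 54, 48 passed under every alternative that could be fitted to them, and 6 lost the call in at least 1 fit without an array, with no change of direction. The only reversal was a change that had not passed, RAB27A under PLX4032 in knockdown cells, at -0.19 without knockdown PLX4032 array B, and it passed at 0.38 without array A. Counts of genes called stayed within 1.5 times of the reported ones, except that asking for at least 1.5-fold as well left 4 of 10 genes with both perturbations. Without 1 array, the interaction passed for 6 to 8 genes. Leaving out the dimmest 40% of genes removed SYTL2 and changed no other call. Each gene had 1 usable probe set, so the probe set rules could not move its values. The letters A and B were not shown to pair the samples: deviations correlated at over 0.1 in 1 of 6 pairs of groups (r from -0.094 to 0.33). With the replicate block the counts were 10 for knockdown in DMSO, 10 for PLX4032 in scrambled cells and 8 for the interaction, and no call changed. The fit on the compared groups alone gives no interaction. Leaving out each array for the other genes named and for the genes of the lists was chosen after seeing the data. For the genes named, the calls it ended or moved by over 1.5 times stand beside their values. Some calls within the list counts also ended in these fits.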

Other observations

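Of 8 measured genes of pigment enzymes and melanosomal membrane proteins, the interaction was positive for 1 and negative for 5, where 6.97% of all genes passed with a positive and 4.85% with a negative sign. Among the negative calls, those of TYR (-0.44) and OCA2 (-0.47) ended in several fits without 1 array. In those fits the values ran from -0.51 to -0.37 for TYR and from -0.45 to -0.42 for OCA2. TYRP1, a melanosomal enzyme delivered with the help of RAB32 and RAB38, read 9.03 and 9.10 in knockdown PLX4032 cells, 5.54 and 5.63 in knockdown DMSO cells, 10.33 and 10.09 in scrambled PLX4032 cells, and 8.08 and 8.20 in scrambled DMSO cells, with an interaction of 1.41 ± 0.14 (limma adjusted p = 7.64e-05). SLC45A2, a melanosomal membrane transporter, read 6.62 and 6.90 in knockdown PLX4032 cells, 8.44 and 8.41 in knockdown DMSO cells, 9.57 and 9.48 in scrambled PLX4032 cells, and 8.61 and 8.80 in scrambled DMSO cells, with an interaction of -2.49 ± 0.15 (adjusted p = 3.84e-06). The order of the groups was thus that of LYST for TYRP1 and that of MREG for SLC45A2, with PLX4032 raising TYRP1 and lowering SLC45A2 in knockdown cells.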
